A study of Mus musculus with 4 samples.

Results

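The peaks described here were the regions of open chromatin that were less accessible in long-term hematopoietic stem cells (LT-HSCs) lacking Sin3B. They were chosen by the sign of the change in the deposited table of differentially accessible peaks. A peak was a member when the log2 of the summed level in the 2 Sin3B-/- libraries over the summed level in the 2 Sin3B+/+ libraries was below 0. This held for 229 of 5332 peaks, or 4.29% of the table, and these peaks were annotated to 214 of its 4376 genes. Because the level itself chose the members, their levels and losses are given as a description, and tests of that contrast add nothing independent.

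Chromatin accessibility was measured by ATAC-Seq in LT-HSCs at homeostasis, to ask how deleting Sin3B alters the open chromatin of these cells. LT-HSCs were sorted from the bone marrow of C57BL/6 mice as lineage-negative, Sca-1+, cKit+, Flk2-, CD48- and CD150+ cells. Controls were labelled WT, and knockouts carried a floxed Sin3B allele deleted by Vav1-iCre, a transgene active throughout the blood system from fetal life, so that the cells had developed without Sin3B. Each genotype had 2 libraries, each library was a pool of cells from 2 mice, and the 8 mice in all leave 2 values per genotype. The age of the mice for this assay was not given in the sources used here. A lower level in such a pool may reflect fewer cells with the region open or a less open region in each cell, which cannot be told apart.

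ATAC-Seq uses the Tn5 transposase, which cuts and tags DNA where it is not wrapped in nucleosomes, so a peak marks a promoter, an enhancer or another exposed site. Sin3B is a scaffold protein that brings histone deacetylases to chromatin, where removal of acetyl groups from histones favours a closed state. RUNX factors are transcription factors that bind enhancers of blood stem and progenitor cells, and RUNX1 is required for the first definitive blood stem cells to form.

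Sequence was not used to choose the members. The letters TGTGGT, the core that RUNX proteins recognise, were found on either strand within the central 200 bases of 79 of the 229 losing peaks. Windows of 60 bases around that match are shown for 6 of the largest losses, because RUNX was the motif whose share exceeded that of the table by most. Capitals mark TGTGGT or its reverse complement ACCACA. All are the plus strand of GRCm38, at chr10:27265856-27265915 for Lama2, chr14:9141169-9141228 for Gm18071, chrX:121654754-121654813 for Gm23277, chr6:35989029-35989088 for Gm23273, chr9:30313544-30313603 for Gm26435 and chr8:89253767-89253826 for Gm5356.
Lama2: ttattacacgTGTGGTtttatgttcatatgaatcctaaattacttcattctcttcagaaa
Gm18071: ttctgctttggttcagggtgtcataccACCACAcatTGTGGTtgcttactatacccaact
Gm23277: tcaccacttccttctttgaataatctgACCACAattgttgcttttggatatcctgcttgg
Gm23273: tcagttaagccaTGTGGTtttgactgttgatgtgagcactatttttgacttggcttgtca
Gm26435: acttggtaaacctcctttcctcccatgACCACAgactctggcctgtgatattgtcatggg
Gm5356: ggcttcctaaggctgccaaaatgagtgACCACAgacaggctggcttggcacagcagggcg

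Of these 6, the Lama2 window lay in an intron and the others lay between genes. The Gm18071 window held the core on both strands. A match of letters describes the sequence and does not show that a protein was bound there.

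Promoter sequences are shown for 3 genes whose losing peak covered the gene start, from RefSeq on GRCm38, each running from 250 bases before to 50 bases after the start and written in the direction of the gene. Capitals mark CpG dinucleotides, which are dense in the promoters of many developmental genes. The windows were chrX:110814129-110814428 for Pou3f4 on the plus strand, chr5:84417333-84417632 for Epha5 on the minus strand and chr6:82402225-82402524 for Tacr1 on the plus strand.
Pou3f4: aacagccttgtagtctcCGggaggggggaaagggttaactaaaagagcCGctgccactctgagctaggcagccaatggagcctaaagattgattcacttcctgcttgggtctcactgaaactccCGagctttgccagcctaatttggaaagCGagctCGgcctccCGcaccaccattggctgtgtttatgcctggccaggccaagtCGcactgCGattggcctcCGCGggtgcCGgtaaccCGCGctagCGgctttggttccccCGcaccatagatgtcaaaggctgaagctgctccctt
Epha5: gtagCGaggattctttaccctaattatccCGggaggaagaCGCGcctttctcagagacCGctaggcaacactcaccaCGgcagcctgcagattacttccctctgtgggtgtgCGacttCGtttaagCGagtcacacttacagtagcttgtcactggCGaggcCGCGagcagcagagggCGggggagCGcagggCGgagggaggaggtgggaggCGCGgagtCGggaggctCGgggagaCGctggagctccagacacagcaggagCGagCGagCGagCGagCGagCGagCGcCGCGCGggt
Tacr1: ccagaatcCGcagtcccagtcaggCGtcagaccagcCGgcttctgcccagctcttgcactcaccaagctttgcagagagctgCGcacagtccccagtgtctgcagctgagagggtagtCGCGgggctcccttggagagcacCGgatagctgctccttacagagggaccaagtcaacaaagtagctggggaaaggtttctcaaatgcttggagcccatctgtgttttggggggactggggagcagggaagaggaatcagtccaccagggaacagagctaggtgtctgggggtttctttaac

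The Epha5 promoter held 30 CpG, that of Pou3f4 15 and that of Tacr1 7. For the 20 members over a gene start that matched an entry of the RefSeq promoter table, the median was 15 CpG, against 7 over all 32851 promoters in it, open or not.

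Levels here are the deposited values, which the authors had normalized per library. The median level over the table was 214 and 180 in Sin3B+/+ replicates 1 and 2, and 319 and 343 in Sin3B-/- replicates 1 and 2. In the losing peaks the medians were 77.8 and 80.9 in Sin3B+/+ against 31.2 and 29 in Sin3B-/-. The values of each library rise in equal steps. If 1 step is 1 read, which the sources used here do not state, the medians of the losing peaks were 341 and 236 reads in Sin3B+/+ but only 50 and 29 in Sin3B-/-. On that reading, a level of 10 reads or fewer occurred in 16 losing peaks in Sin3B-/- replicate 2 and in 1 in replicate 1, so the largest losses rest on few knockout reads. The largest of all was below a floor of 3 reads in replicate 2. These reads cover the peaks of the table only, and the total depth of each library is unknown. Because the table holds only peaks called as different, it says nothing of regions that did not differ. No peak annotated to Sin3b was in the table, so the deletion could not be checked in these data.

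In all 229 losing peaks both Sin3B-/- libraries were below both Sin3B+/+ libraries, which held for 229 of the 5332 table peaks, or 4.29%. The table had been selected for this contrast. Separation of the groups is therefore only a description, here and at the genes below. The lowest Sin3B+/+ level was 1.22 to 32.2 times the highest Sin3B-/- level, with a median of 1.93. This gap was wider than the larger fold between replicates of a genotype in 195 of the 229 peaks. The closest approach was at Ptprk, a receptor tyrosine phosphatase gene named for this gap after its values were seen, where the levels were 139 and 180 in Sin3B+/+ against 114 and 63 in Sin3B-/-. The replicates of the knockout were not ordered as elsewhere in the table. Sin3B-/- replicate 1 was above replicate 2 in 150 of the 229 losing peaks, or 65.5%, and in 28.0% of all table peaks. Sin3B+/+ replicate 1 was above replicate 2 in 48.5% of losing peaks and in 87.7% of the table.

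**Figure D1:**
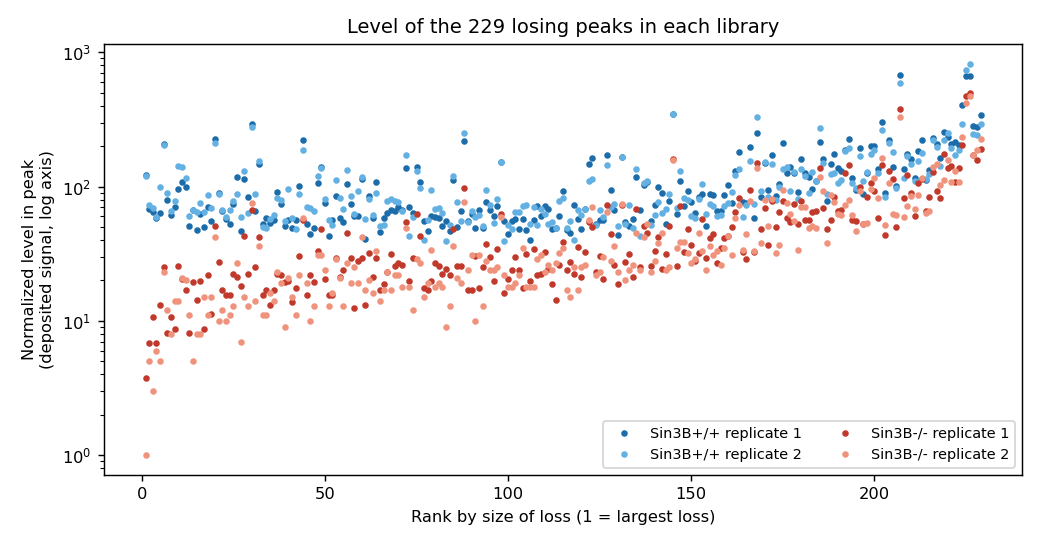
Normalized level (log axis) in each of the 4 libraries for the 229 losing peaks, ordered by size of loss, with 1 point per peak and library. Both Sin3B-/- libraries lie below both Sin3B+/+ libraries in every peak, and the highest level was 824, in Sin3B+/+.

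The median log2 change of the losing peaks was -1.25, with quartiles of -1.72 and -1.01, against a median of 0.76 over the table. Relative to that table median the losing peaks stood at -2.01. Sin3B-/- LT-HSCs kept a median of 42.1% of the Sin3B+/+ level, with a range of 1.96% to 66.0%. The lower end is uncertain, because it comes from the largest loss, near 1700027A15Rik, where Sin3B-/- replicate 2 was below the floor. Its log2 change was -5.68, and -5.02 or -6.92 with 1 Sin3B-/- library left out. The next lowest share was 8.45%, at Lama2. The log2 change was -1 or below in 175 peaks, -1.5 or below in 82 and -2 or below in 30. Low starting levels went with deeper losses, in a table whose selection itself depends on level. In the 58 peaks with the lowest Sin3B+/+ means, of 46.3 to 61.4, the median log2 change was -1.46, while in the 57 with the highest means, of 127 to 744, it was -0.91. No losing peak came close to 0, but the table holds only peaks called as different, a selection that tends to leave out small changes. The smallest losses were at Cfap43, Arhgef28 and Coro2a, with log2 changes of -0.60, -0.61 and -0.61, and the nearest peaks on the other side of 0 were annotated to Gm12866, Eif4g2 and 2410080I02Rik, at 0.43, 0.44 and 0.44.

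Limma was run on log2(level + 1) and adjusted by the Benjamini-Hochberg method over all 5332 peaks. It called 229 of the 229 losing peaks lower in Sin3B-/- LT-HSCs, and these lower calls made up 4.29% of the table. It called all 5103 gaining peaks higher, so no peak of the table was left uncalled. The fitted standard error was 0.22 for every peak. The table had been selected for this same contrast, so nothing is read from these calls, and the 2 libraries per genotype allow no exact permutation p below 0.33.

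Beyond the 3 deepest losses, the next 15 had log2 changes from -3.20 to -2.26. They were annotated to 6 protein-coding genes, 4 processed pseudogenes, 4 small nuclear or nucleolar RNA genes and 1 long noncoding RNA gene. At the peak upstream of the pseudogene Gm18071, 475022 bp from the nearest protein-coding start, the levels were 58.9 and 59.3 in Sin3B+/+ against 6.87 and 6 in Sin3B-/-. The peak on chromosome X upstream of Gm23277 was the brightest of the 15, at 207 and 206 in Sin3B+/+ and 24.99 and 23 in Sin3B-/-. Its nearest protein-coding start, that of Nap1l3, was 742638 bp away. Upstream of Gm22974 the levels were 79.0 and 89.1 in Sin3B+/+ against 8.12 and 12 in Sin3B-/-. In these 3 peaks the genotypes were far apart, and at Gm22974 the Sin3B-/- replicates were the least alike.

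Among the protein-coding genes of this group, Cntn3 encodes a contactin, an immunoglobulin-type adhesion molecule of nerve cells. Its intronic peak had levels of 64.1 and 100 in Sin3B+/+ and 13.1 and 5 in Sin3B-/-, a log2 change of -3.18. Naaladl2 spans 1346.2 kb, and its intronic peak was at 108 and 140 in Sin3B+/+ and 20.6 and 21 in Sin3B-/-. Sgcz encodes a sarcoglycan of the membrane complex that anchors muscle fibres. The Sgcz peak was at 50.4 and 64.4 in Sin3B+/+ and 8.75 and 15 in Sin3B-/-. At Efemp1, which encodes the matrix glycoprotein fibulin, the peak covered the gene start, with levels of 62.3 and 75.8 in Sin3B+/+ and 19.99 and 8 in Sin3B-/-. The groups did not overlap at any of these genes, while Sin3B-/- replicate 2 was well below replicate 1 at Cntn3 and Efemp1.

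Losing peaks lay far from gene starts more often than the peaks of the table, in which they are included. The peak centre was over 200 kb from the nearest start of a protein-coding transcript in 49 of 229 losing peaks, or 21.4% (95% Wilson interval 16.6 to 27.2%), against 2.78% of the table. Read the other way, 33.1% of the 148 table peaks at that distance were losing peaks. A further 64 losing peaks, or 27.9%, lay at 50 to 200 kb, against 10.1% of the table. Only 34 losing peaks, or 14.8%, lay within 1 kb of a start, against 38.2% of the table.

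Level differed between the sets as well, with a median over the 4 libraries of 54.6 in losing peaks and 263 in the table. Among peaks with a mean level of 100 or below, 23.0% of 178 losing peaks and 4.96% of 1229 table peaks lay over 200 kb from a start. In the same stratum, 14.6% of losing peaks and 12.5% of table peaks lay within 1 kb of a start. This stratum was chosen after the data were seen, by a mean that includes the Sin3B-/- libraries, and the part of level in either share was not tested.

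**Figure D2:**
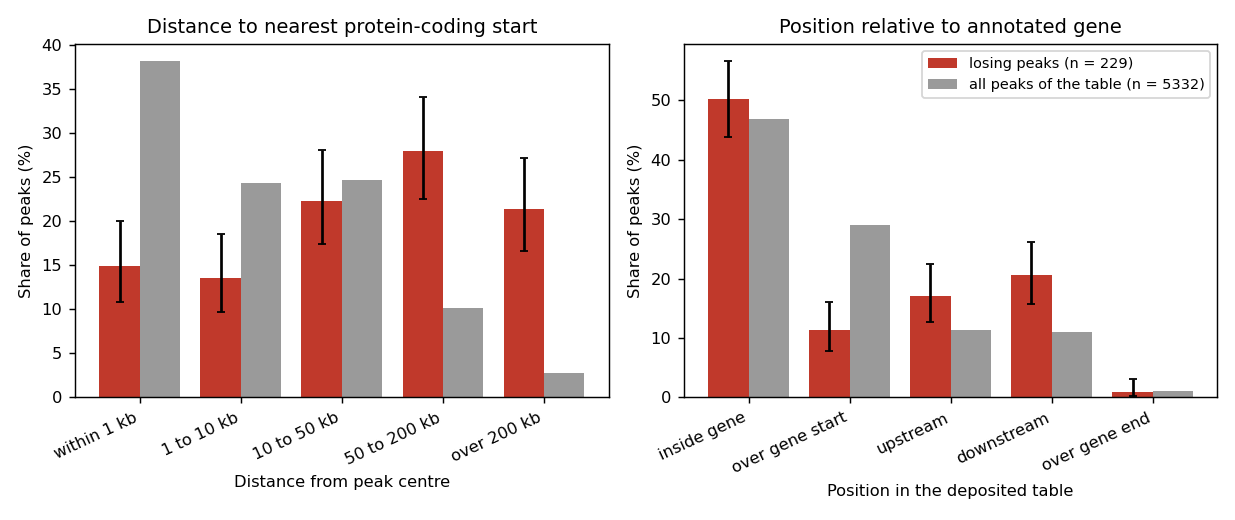
Share of peaks (%) by distance from the nearest protein-coding start (left) and by position relative to the annotated gene (right), for losing peaks (red, 95% Wilson intervals) and all table peaks (grey). Losing peaks exceed the table beyond 50 kb, with 21.4% against 2.78% over 200 kb, and fall below it within 10 kb and over gene starts. Peaks of all levels are included, and the sets are not matched for level.

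By the position given in the table, 115 losing peaks, or 50.2%, were inside a gene, against 46.9% of the table. By GENCODE gene bodies the order turned, with 59.4% of losing peaks and 65.8% of the table in a gene. A further 47 were downstream of their gene, 39 upstream, 26 over its start and 2 over its end. The 20.5% downstream and 17.0% upstream compare with 11.0% and 11.4% of the table. By the peak centre in GENCODE M21, 113 losing peaks were in an intron, 93 between genes, 12 in an untranslated region, 8 in an exon of a noncoding gene and 3 in a coding exon. The gene annotated to a losing peak was protein-coding in 62.4%, against 80.2% of the table, and a processed pseudogene in 11.4%, against 3.13%. Such annotations name the nearest gene and not a target. The median GC content was 50.4% in losing peaks and 53.3% in the table. The ratio of observed to expected CpG was 0.20 and 0.33. Losing peaks lay on every autosome and on X, from 3 on X to 19 on chromosome 6, which held 8.30% of them and 4.67% of the table.

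Losing peaks inside protein-coding genes sat in long genes. The median length of the host gene was 201 kb for 101 losing peaks and 50.4 kb for 2117 peaks that gained accessibility. Counting each gene once, the medians were 187 kb over 95 genes and 44.2 kb over 1726 genes. Hosts of 500 kb or more held 26 of the 101 losing peaks, or 25.7%, and 3.12% of the gaining peaks. Among peaks with a mean level of 100 or below, 27.4% of losing peaks and 5.26% of all table peaks inside protein-coding genes had such a host. Inside these genes the losing peaks also lay further from a protein-coding start, at a median of 26280 bp against 6879 bp for gaining peaks. Host length and distance from a start are linked, and the part of either was not tested. Very long genes are common among those for adhesion molecules and synaptic proteins of the nervous system.

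**Figure D3:**
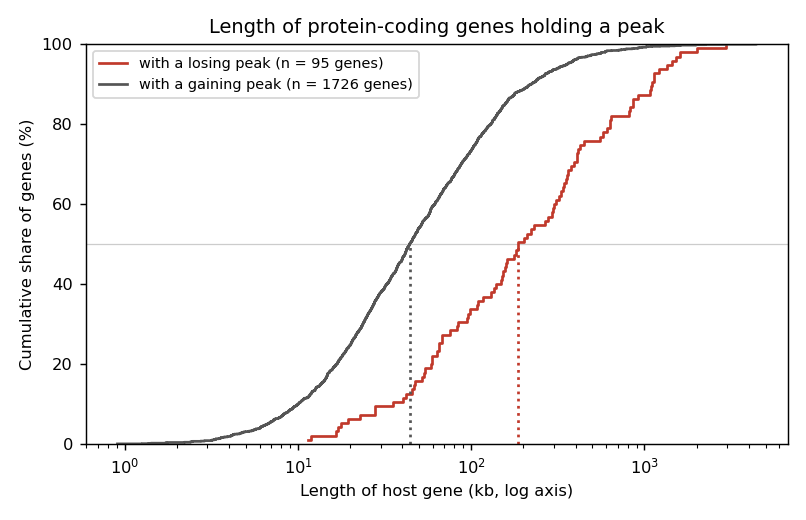
Cumulative share of genes (%) against gene length (kb, log axis) for protein-coding genes with a losing peak inside them (red, n = 95) and with a gaining peak inside them (grey, n = 1726). The dotted lines mark the medians of 187 and 44.2 kb, and the genes with a losing peak are the longer ones over most of the range.

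Ctnna2 encodes an alpha-catenin, the link between cadherins and actin in neurons, and spans 1098.1 kb. Its peak had levels of 71.0 and 86.7 in Sin3B+/+ and 21.9 and 11 in Sin3B-/-. Csmd3, a transmembrane protein gene of 1211.4 kb, had a peak at 148 and 156 in Sin3B+/+ and 42.5 and 36 in Sin3B-/-. In both of these introns the genotypes were further apart than the replicates of either.

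Rbfox1, which encodes a splicing factor of neurons and muscle, held 1 of the brightest losing peaks. Its levels were 348 and 347 in Sin3B+/+ against 162 and 158 in Sin3B-/-, a log2 change of -1.12. The replicates differed by far less than the genotypes. At Cdh11, a cadherin gene, they were 60.5 and 78.2 in Sin3B+/+ against 26.2 and 32 in Sin3B-/-. At Ctnnd2, which encodes a delta-catenin, they were 87.8 and 110 in Sin3B+/+ against 53.1 and 53 in Sin3B-/-.

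A total of 14 genes were annotated to 2 or more losing peaks. Tacr1, the receptor for the neuropeptide substance P, was the gene with 3. The peak over its start had levels of 88.8 and 104 in Sin3B+/+ and 57.5 and 33 in Sin3B-/-. The intronic peak 7950 bp from the start had 112 and 120 in Sin3B+/+ and 48.7 and 36 in Sin3B-/-. The intronic peak 61046 bp from it had 60.5 and 93.6 in Sin3B+/+ and 19.99 and 34 in Sin3B-/-. The 3 log2 changes were -1.09, -1.45 and -1.51, and no gaining peak lay in the 61550 bp they span. Tac1, the gene of the substance P precursor and named here after its values were seen, had a losing peak over its own start, with 52.3 and 68.6 in Sin3B+/+ and 31.2 and 24 in Sin3B-/-.

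Epha5, an ephrin receptor that guides axons, had a pair of losing peaks within 1887 bp. The peak over the start was at 251 and 332 in Sin3B+/+ and 150 and 137 in Sin3B-/-. The peak in the first part of the gene, 1093 bp from the start, was at 46.8 and 59.6 in Sin3B+/+ and 18.1 and 7 in Sin3B-/-. The dimmer peak lost more, with a log2 change of -2.08 against -1.02.

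Anks1b, the gene of a postsynaptic protein, had losing peaks 146376 bp from edge to edge, at 96.7 and 142 in Sin3B+/+ against 25.6 and 14 in Sin3B-/- for the first. The second was at 66.4 and 73.4 in Sin3B+/+ and 29.99 and 24 in Sin3B-/-. Opcml, a gene of 1134.6 kb for an adhesion molecule of the immunoglobulin family, also had a pair. They were at 216 and 273 in Sin3B+/+ with 138 and 117 in Sin3B-/-, and at 165 and 167 in Sin3B+/+ with 73.1 and 74 in Sin3B-/-. Nrxn3, a presynaptic neurexin gene, had a peak 139 bp from an internal start at 188 and 185 in Sin3B+/+ and 126 and 73 in Sin3B-/-. Its more distal peak was at 67.3 and 73.7 in Sin3B+/+ and 26.2 and 36 in Sin3B-/-. Within each pair the members differed in level by up to several fold, but neither genotype group overlapped the other.

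**Figure D4:**
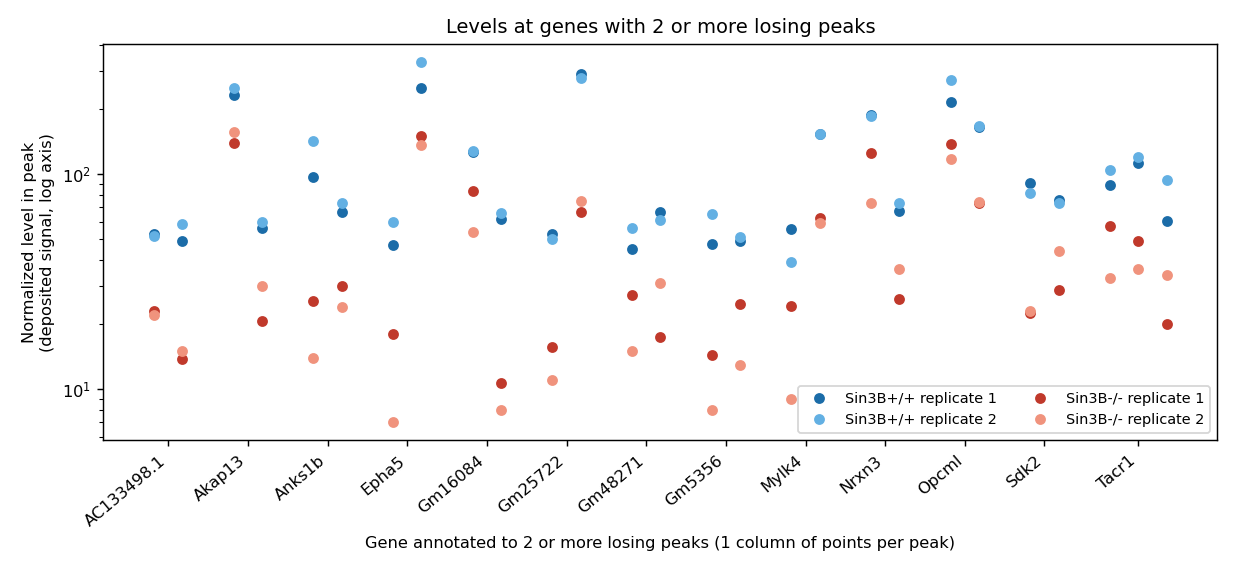
Normalized level (log axis) in the 4 libraries at each losing peak of 13 of the 14 genes annotated to 2 or more of them, with 1 column of points per peak, ordered by position on the chromosome. Sin3B+/+ points (blue) lie above Sin3B-/- points (red) in every column, and Tacr1 is the gene with 3 columns.

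Sdk2, which encodes an adhesion molecule of retinal synapses, had losing peaks with log2 changes of -1.92 and -1.03. Mylk4, a myosin light chain kinase gene, had -1.50 at a peak 140782 bp from its start and -1.33 inside the gene. Further pairs were at Akap13 (-0.71 and -1.20) and at the noncoding or predicted genes Gm16084, AC133498.1, Gm25722, Gm48271 and Gm5356, where log2 changes ran from -2.78 to -0.89. Counted by distance alone, 37 losing peaks lay within 200 kb of another and formed 18 groups. Of these groups, 16 had no gaining peak between their outer edges. The exceptions were Akap13, with 3 gaining peaks in between, and the group of Gm10988 and Capns1, with 1. The widest group spanned 188407 bp. Groups of other peaks were not counted in this way, so nothing is read from these counts. Over all losing peaks the median distance to the nearest gaining peak was 479142 bp, and 36 of the 229 had one within 100000 bp. A gaining peak had its nearest other gaining peak at a median of 42401 bp.

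A gene start was covered by 26 losing peaks. They were 11.4% of the losing peaks (95% Wilson interval 7.87 to 16.1%), against 29.0% of the table. At low level the order turned. Among peaks with a mean level of 200 or below, 195 of 219 losing peaks and 2130 of 2267 table peaks were not over a start. That limit was also set after the data were seen, and the part of level was not tested. The 26 peaks over a start had a median log2 change of -1.35. The ratio of observed to expected CpG in these peaks had a median of 0.62, below the 0.73 of the 1522 gaining peaks over a gene start. Cntn1, another contactin gene, was at 56.1 and 96.7 in Sin3B+/+ and 19.99 and 21 in Sin3B-/-. Fam180a was at 221 and 186 in Sin3B+/+ and 56.2 and 58 in Sin3B-/-. Dsc2, a desmosomal cadherin gene of epithelia and heart, was at 106 and 119 in Sin3B+/+ and 33.1 and 31 in Sin3B-/-. At all 3 starts the Sin3B-/- replicates were nearly equal and far below both Sin3B+/+ replicates.

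Pou3f4, a POU-domain transcription factor gene of the developing brain and inner ear, had start levels of 56.4 and 51.8 in Sin3B+/+ and 15.6 and 16 in Sin3B-/-. Chodl, which encodes chondrolectin, was at 54.5 and 68.2 in Sin3B+/+ and 23.7 and 13 in Sin3B-/-. Mapk10, the neuronal member of the JNK kinases, was at 40.4 and 56.9 in Sin3B+/+ and 13.1 and 17 in Sin3B-/-. All 3 were dim, below the median Sin3B+/+ mean of the losing peaks, 79.9, in every library. Wwc2, in contrast, was at 664 and 736 in Sin3B+/+ and 472 and 419 in Sin3B-/-, a log2 change of -0.65.

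The 8 losing peaks with the highest Sin3B+/+ means had log2 changes from -2.01 to -0.60. Gm25722, at 293 and 278 in Sin3B+/+ and 66.9 and 75 in Sin3B-/-, lost the most of them, and Rbfox1 and Epha5 are given above. AC132455.2, a long noncoding RNA gene, was the nearest gene of a peak at 663 and 824 in Sin3B+/+ and 497 and 473 in Sin3B-/-. Glp2r, the receptor of an intestinal growth hormone, was at 679 and 591 in Sin3B+/+ and 376 and 331 in Sin3B-/-. Tas1r2, a sweet taste receptor gene, was at 406 and 294 in Sin3B+/+ and 205 and 236 in Sin3B-/-. The genotypes were separate in each, but at Tas1r2 the gap between them was smaller than that between the Sin3B+/+ replicates.

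Both a losing and a gaining peak were annotated to 23 genes, or 10.7% of the 214. Ing1, a subunit of Sin3 complexes that reads a histone mark of active promoters, had gaining peaks over its start, at 2247 and 1757 in Sin3B+/+ and 2957 and 2978 in Sin3B-/-, and inside the gene. Its losing peak was 30393 bp downstream of the start, at 116 and 110 in Sin3B+/+ and 60.6 and 68 in Sin3B-/-. Epb41l3, a membrane skeleton gene, showed the other order. Its start lost, from 76.2 and 93.9 in Sin3B+/+ to 37.5 and 28 in Sin3B-/-, while a peak within the gene was at 381 and 384 in Sin3B+/+ and 611 and 616 in Sin3B-/-. Foxo3, a forkhead factor needed to maintain blood stem cells and named after its values were seen, had a losing intronic peak at 135 and 126 in Sin3B+/+ and 58.7 and 82 in Sin3B-/-. Another intronic peak of Foxo3 gained, from 31.9 and 21.9 in Sin3B+/+ to 58.7 and 58 in Sin3B-/-, a log2 change of 1.12. Macrod2, Fstl4, Fgfr2 and Osbpl1a also had peaks of both kinds, with losses of -1.80, -1.72, -1.36 and -1.27 on the log2 scale. The direction of the gaining peaks depends on the scaling of the libraries. When each library was divided by its median over the table, 20 of the 38 gaining peaks of these 23 genes fell below 0, while all 229 losing peaks stayed below it. Over all gaining peaks the count was 2389 of 5103. Gaining peaks dominate that median, so the division puts many of them below 0 and lowers every losing peak by design. These counts therefore describe the scaling and check neither direction.

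Motif letters were searched on both strands of the central 200 bases, in losing peaks and in all peaks of the table alike. The letters were TGTGGT for RUNX, AGATAA for the GATA factors, AGGAAG for ETS, TGANTCA for AP-1, CAGCTG for an E-box, CTTTGA for TCF/LEF, TTGCNNAA for CEBP and, for IRF, GAAA repeated after a gap of a pair of bases. The others were TGACAG for MEIS, TTTGAA for the cell cycle element CHR, GCGGGAA for E2F, AGGNGGC for the core of CTCF, GGGCGG for KLF/SP, CCAAT for NFY and TGTTTAC for FOX. TCF/LEF and CHR matches can overlap, as can those of KLF/SP with E2F or CTCF. At least 1 of the 15 was present in all but 12 of the losing windows.

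The RUNX core was in 34.5% of losing peaks (95% Wilson interval 28.6 to 40.9%) and in 20.7% of the table. Away from gene starts the shares were 36.9% and 26.0%. With peaks of a mean level over 200 also left out they were 37.9% of 195 and 27.2% of 2130. In each range of distance from a start beyond 1 kb the share was higher in losing peaks than in the table, from 32.8% against 25.3% at 50 to 200 kb to 46.9% against 35.1% over 200 kb. Within 1 kb it was 8.82% and 9.63%. Among the 50 largest losses 18 held the core and among the 50 smallest 15 did. RefSeq promoters of 300 bases held it in 16.8%.

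**Figure D5:**
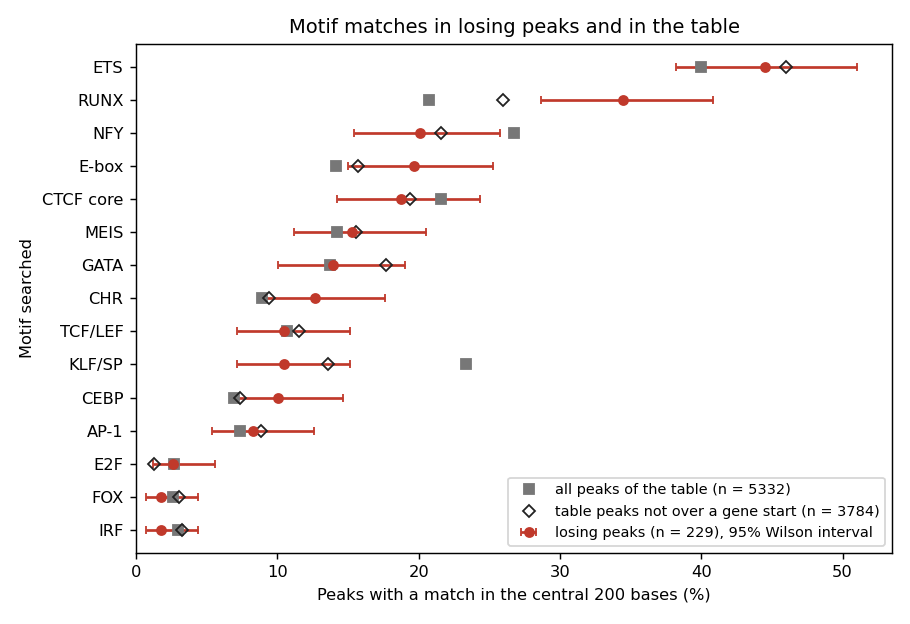
Share of peaks (%) with a motif match in the central 200 bases, for losing peaks (red, 95% Wilson intervals), all table peaks (grey squares) and table peaks not over a gene start (open diamonds). RUNX lies above both comparison sets, at 34.5% against 20.7% and 26.0%, and KLF/SP lies below the table, at 10.5% against 23.3%.

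The E-box was in 19.7% of losing peaks and 14.1% of the table, CEBP in 10.0% and 6.90%, and CHR in 12.7% and 8.89%. Away from gene starts the shares were 20.2% and 15.7% for the E-box, and 13.3% and 9.41% for CHR. RUNX and an E-box occurred together in 15 losing windows, or 6.55%, against 3.11% of the table, and RUNX with ETS in 36, or 15.7%, against 9.81%. Such shares rise with those of each motif alone, and peaks over gene starts are included. Whether either pair exceeded what its single shares give was not tested, and other pairs with RUNX are not reported here. KLF/SP was in 10.5% of losing peaks and 23.3% of the table, and away from gene starts in 6.40% and 13.6%. With peaks of a mean level over 200 also left out these shares were 6.15% and 9.25%. NFY was in 20.1% and 26.7%, away from gene starts in 20.7% and 21.6%, and with peaks of a mean level over 200 also left out in 41 of 195 losing peaks and 417 of 2130 of the table. GATA was in 14.0% and 13.7%, and ETS, the most frequent, in 44.5% and 39.97%. Over peaks at all positions, the table's share was inside the interval of the losing peaks for 10 of the 15 motifs. The exceptions were RUNX, E-box, CHR, KLF/SP and NFY. No interval was made for peaks away from gene starts, where the NFY shares were close. CHR was an exception only narrowly, with 8.89% of the table against a lower limit of 8.96%.

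Lists of genes were read against the table in the same way. No losing peak was annotated to any of the 35 HSC identity genes, a list without Foxo3, although 17 of them had a gaining peak. The same held for the lists of lymphoid, myeloid, and erythroid and megakaryocyte genes, of which 7 of 39, 4 of 29 and 8 of 26 had a gaining peak. It held also for JAK-STAT and interferon genes (14 of 35 with a gaining peak), cell cycle and DREAM genes (11 of 47), TGF-beta, Wnt and Notch genes (17 of 46), and endothelial and stromal genes (1 of 16). Of 63 adhesion, junction and basement membrane genes 17 had a table peak and 5 a losing one, namely Cdh11, Ctnna2, Ctnnd2, Lama2 and Opcml, while 12 had a gaining peak. Of 42 genes of neuronal receptors and synapses 8 had a table peak and 4 a losing one, among them Csmd3, Epha5 and Nrxn3, and 5 had a gaining peak. Of 25 Sin3 complex genes, Ing1 alone had a losing peak and 7 had a gaining one. Over all genes with a table peak 4.89% had a losing one. The lists were chosen with earlier results of these data known, and those without a losing peak had only 1 to 17 genes with a table peak. Nothing is read from any of these counts.

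The LT-HSC label was read against 49 marker genes of LT-HSCs and of cells that the sort should remove. Of these, 10 had a peak in the table and 0 had a losing peak. Among the 10 LT-HSC markers, Slamf1, Procr, Fgd5 and Gata2 had peaks, all gaining. No peak of the 6 B cell markers, of Flt3 or Cd48, or of the 8 endothelial and stromal markers was in the table. The markers of other cell types with a peak were Cd3d, Csf1r, Klf1, Hbb-bt, Itga2b and Pf4, whose 8 peaks had log2 changes of 0.59 to 1.51. Their part in the losing peaks was not tested.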

How the data were processed

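ATAC-Seq was analysed in 2 Sin3B+/+ and 2 Sin3B-/- libraries of sorted LT-HSCs, each pooled from 2 mice and amplified for 12 PCR cycles. The labels give genotype and replicate number. The authors trimmed reads with Trimmomatic, aligned them with Bowtie2, called peaks with MACS2, and counted, normalized and tested them with DiffBind and DESeq2; tool versions are not given in the sources used here. The submitters' processing notes name the build mm9, but 96.6% of the 5330 gene identifiers found in GENCODE M21 had the same position there, so GRCm38 was used for sequence and annotation. The deposited table holds, per peak and library, a signal, normalized per library. The authors' columns of log2 levels and fold, p-value and FDR were not used. Within 0.02, every value was a multiple of 1 step (0.228 and 0.343 in Sin3B+/+, 0.625 and 1 in Sin3B-/-), and 3 steps, called reads, are taken as the floor, 0.684, 1.03, 1.87 and 3. That 1 step is 1 read is not stated in the sources used here, so numbers of reads serve as a description, without a count test.

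Log2 changes are of summed levels with no pseudocount. limma used log2(level + 1) over all 5332 peaks with genotype alone, the Benjamini-Hochberg method and a threshold of 0.05, and was tested on simulated data. Shares have 95% Wilson intervals, which cover counting error over peaks only. The members, gene lists and motifs were chosen with earlier results of these data known. Peaks were named by rank (4 to 18 by loss), the 8 highest Sin3B+/+ means, gene lists, genes with 2 or more members, members within 200 kb of each other, the 8 largest losses within 1 kb of their gene's start, the 3 nearest 0 on each side, up to 8 genes with peaks of both kinds, and the largest loss per motif; exceptions are stated, and some named by this rule are not reported here. Alternatives were centred libraries, another pseudocount or minimum level, a loss threshold, other windows and annotation, a replicate block, and leaving out each library. Same-numbered libraries came from different mice. Software was Python 3.11.15, numpy 2.4.6, pandas 2.3.3, scipy 1.17.1, matplotlib 3.10.9, R 4.3.3 and limma 3.58.1.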

Additional observations from a re-analysis of the deposited data

How the results depend on the processing

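Dividing each library by its median over the table, which gaining peaks dominate, lowers every losing peak and puts many gaining peaks below 0 by design. With this division 2618 peaks were below 0, all 229 losing peaks among them. The median log2 change of the losing peaks was then -2.01. That median was -1.12 with a pseudocount of 5 and -1.23 to -1.36 when 1 library was left out. With 1 library left out the number of losing peaks stayed at 229. No losing peak could leave the set, because both Sin3B-/- libraries were below both Sin3B+/+ libraries in all 229. For limma, leaving 1 library in a genotype assumes that it varies like the other genotype, so its calls are not given. With the replicate number as a block limma called 229 of 229 losing peaks, and 229 with the pairing crossed, which was added after the data were seen because same-numbered libraries deviated in opposite directions (correlation -0.10 over the table). With GENCODE gene bodies 59.4% of losing peaks were in a gene, against 65.8% of the table, the opposite order to the table's own positions. For the 77 named losing peaks no direction changed. Given the separation of the groups, none could have changed with a pseudocount, centred libraries or a library left out. The log2 change moved by more than the replicate spread in 69 with centred libraries, 17 with a pseudocount of 5 and 1 with a pseudocount of 1. Whole peaks held each motif more often than the central windows, RUNX in 63.8% of losing peaks and 46.8% of the table. Planned count tests on the reads recovered from the steps were not run. With 2 libraries per genotype, shares over peaks do not measure variation between mice.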
